A study of Mus musculus with 2 samples.

Results

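The miRNA genes described here are Mir128-1, Mir128-2, Mir153, Mir218-1 and Mir218-2, 5 of the 2202 miRNA genes in the deposited tables. They were taken by symbol, through the Ensembl identifiers of the GENCODE M21 annotation, and all 5 were found in both libraries. The material was the left cerebral cortex from 2 B6CASTF1/J mice, both female and aged 2 months, with no treatment named in the labels. Such mice are the first-generation offspring of a cross between C57BL and CAST, an inbred strain derived from wild mice. Both libraries form a single group, 1 library for each animal, and they are called animal 1 and animal 2 after the replicate numbers in the labels. The labels number the animals 03 and 04 and give both the same donor identifier. Whatever separates the libraries may therefore lie in the animals, the dissection or the library preparation, and these cannot be told apart. The tissue was whole, so fewer cells of a type and less of a miRNA per cell cannot be told apart either.

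A miRNA gene is transcribed into a longer RNA that folds into a hairpin, and Drosha and Dicer cut the hairpin into a short duplex. Either strand of the duplex, the 5p or the 3p arm, can be loaded into Argonaute as the mature miRNA, which represses messenger RNAs that pair with its seed, the bases 2 to 8. Many miRNA hairpins lie in introns and are transcribed with their host gene, although some have promoters of their own. miR-128 is enriched in the brain and is known to restrain the excitability of neurons. miR-153 acts on genes of synaptic vesicle release, and miR-218 is known for its abundance in motor neurons and for acting on Robo1, a receptor of the Slit proteins.

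The mature sequences are shown first because the copies of a family differ in only 1 of their arms. They come from RefSeq on build GRCm38.p6, which held all 5 genes, and capitals mark the seed.
miR-128-3p: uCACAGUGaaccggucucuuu
miR-128-1-5p: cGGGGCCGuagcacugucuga
miR-128-2-5p: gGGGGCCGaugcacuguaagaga
miR-153-3p: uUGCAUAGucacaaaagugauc
miR-153-5p: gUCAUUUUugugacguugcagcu
miR-218-5p: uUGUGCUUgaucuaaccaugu
miR-218-1-3p: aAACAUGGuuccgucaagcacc
miR-218-2-3p: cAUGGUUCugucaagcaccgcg

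Both Mir128 copies carry the same miR-128-3p, and both Mir218 copies carry the same miR-218-5p. The 5p arms of the Mir128 copies differ in sequence but share the seed GGGGCCG. The 3p arms of the Mir218 copies share no seed. Among 1738 mature sequences in the RefSeq table, none outside Mir128-1 and Mir128-2 had a seed of the miR-128 arms, and none outside Mir153 had a seed of the miR-153 arms. The miR-218-5p seed UGUGCUU recurred in miR-7002-3p, whose gene Mir7002 had 1 count in animal 1 and 0 in animal 2. The miR-218-1-3p seed recurred in miR-496b, whose gene Mir496b had 0 counts in both animals, which allows up to 3 counts, or 0.679 CPM for animal 1 and 1.32 CPM for animal 2.

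The deposited values are 1 count per hairpin gene, so they do not say which arm a read came from. Which reads can be placed at a copy therefore depends on the hairpin around the arm. The hairpins of the copies are printed with their longest shared stretch in capitals.
Mir128-1: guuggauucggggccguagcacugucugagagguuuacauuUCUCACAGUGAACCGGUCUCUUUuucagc
Mir128-2: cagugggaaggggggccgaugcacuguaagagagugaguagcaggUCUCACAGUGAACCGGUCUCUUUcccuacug
Mir218-1: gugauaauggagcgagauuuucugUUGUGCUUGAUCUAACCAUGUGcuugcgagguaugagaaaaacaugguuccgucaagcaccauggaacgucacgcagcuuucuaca
Mir218-2: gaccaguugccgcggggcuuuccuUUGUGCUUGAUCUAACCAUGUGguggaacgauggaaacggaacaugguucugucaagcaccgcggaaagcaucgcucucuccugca

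The shared stretch was 23 bases in the Mir128 pair and 22 bases in the Mir218 pair. It held the whole of miR-128-3p with 2 bases before it, and the whole of miR-218-5p with 1 base after it. With position 1 at the first base of the mature sequence, the Mir128 copies first differed at U22C, 1 base past the end of the mature sequence, with the base of Mir128-1 written first. The Mir218 copies first differed at C23G, 2 bases past the end, with the base of Mir218-1 written first. A read of exactly the annotated shared arm fits both copies equally, and a read of the other arm, or one running past the shared stretch, fits 1 copy. Of the windows of 22 bases, 2 of 49 in Mir128-1 and 2 of 55 in Mir128-2 were found in the other copy, and 1 of 89 in each Mir218 hairpin. Mir153 had none of 48 windows in another annotated hairpin, on either strand. All shared windows lay between the copies of a family, and no other annotated hairpin held one. The search covered annotated hairpins and not the rest of the genome.

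**Figure D1:**
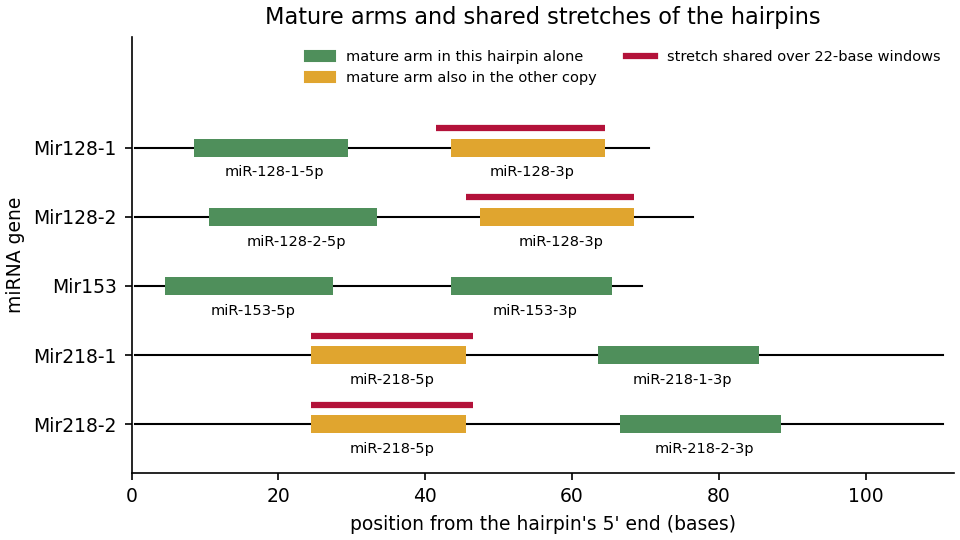
The 5 hairpins drawn to scale, with position in bases from the 5' end on the x axis and the genes on the y axis. Green bars are mature arms found in that hairpin alone, yellow bars are arms also found in the other copy, and the red line spans the 23 shared bases of the Mir128 pair and the 22 of the Mir218 pair, with none over Mir153.

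Each gene lay in an intron of a different protein-coding gene, on that gene's strand. Positions are on mm10 with GENCODE M21, and introns are numbered in the protein-coding transcript with the most exons. Mir128-1 (ENSMUSG00000065520.2) lies at chr1:128202361-128202430 on the plus strand, in intron 19 of 26 of R3hdm1, a gene for a protein with an R3H domain. Mir128-2 (ENSMUSG00000065441.2) lies at chr9:112118636-112118711 on the minus strand, in intron 19 of 20 of Arpp21, which encodes a phosphoprotein regulated by cyclic AMP. Mir153 (ENSMUSG00000065538.1) lies at chr12:117250817-117250885 on the plus strand, in intron 19 of 22 of Ptprn2, a phosphatase-like protein of dense-core vesicles. Mir218-1 (ENSMUSG00000065603.1) lies at chr5:48223942-48224051 on the plus strand, in intron 16 of 38 of Slit2. Mir218-2 (ENSMUSG00000065583.1) lies at chr11:35616816-35616925 on the plus strand, in intron 14 of 35 of Slit3. Slit2 and Slit3 encode secreted axon guidance proteins that bind Robo receptors.

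All 5 hairpins stood alone. No host gene held another annotated miRNA gene on either strand, and the nearest miRNA gene on the same strand at the least distance was Mir103-1, 165 kb from Mir218-2. For the other 4 genes that distance ran from 1483 kb for Mir128-2 to 4517 kb for Mir153. Among the 415 miRNA genes detected in both animals, 195 (47.0%) lay in an intron and 112 (27.0%) lay in an intron with no other miRNA gene of their strand within 100 kb. The distance from hairpin to the nearest annotated host exon ran from 404 bases for Mir218-1 to 4562 bases for Mir128-1. Mir153 alone had an annotated gene on the opposite strand, the antisense transcript Gm5441. Counts on the opposite strand were 0 for all 5 genes in both animals, and the counts without regard to strand were the same as those used here.

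The level of a gene is its CPM, the number of its counts in every 1000000 counts at miRNA genes. These totals were 4415759 in animal 1 and 2279562 in animal 2, so values from animal 1 carry less counting error. Intervals are exact Clopper-Pearson 95% intervals and cover counting error only, as reads that carry no molecular identifier may be PCR copies of 1 molecule. A short-RNA read spans about a whole mature miRNA, so counts were not divided by hairpin length; dividing them by it left the order of the 5 mean levels as it was. A separate entry holds the reads that mapped to several places, 48.9% of mapped reads for animal 1 and 48.2% for animal 2. They were 58.3 and 95.04 times the counts of the 5 genes together. The percentages were computed as if such reads were separate from the gene counts. The sources used here do not say whether such reads were also counted at genes, so the levels of the 4 genes with a copy are uncertain. All 5 genes passed 2 CPM in both animals, as did 415 of the 2202 genes.

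Mir128-1 was by far the most abundant of the 5. It had 71376 counts in animal 1, or 16164 CPM (16047 to 16282), and 21987 counts in animal 2, or 9645 CPM (9519 to 9773). It ranked 12th of all miRNA genes in animal 1 and 23rd in animal 2, and its mean of 12905 ± 4609 CPM (SD, n = 2) lay above 96.4% of detected genes. Mir128-2 had 13104 counts, or 2968 CPM (2917 to 3019), in animal 1 and 4494 counts, or 1971 CPM (1914 to 2030), in animal 2. Its mean was 2469 ± 704 CPM (SD, n = 2), above 86.0% of detected genes, with ranks 52 and 68. In each animal the counts placed at the copy in R3hdm1 thus stood above those at the copy in Arpp21. The values of the copies did not overlap over the animals. From which copy reads of the shared arm came was not tested.

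Mir153 had 1885 counts, or 427 CPM (408 to 447), in animal 1 and 311 counts, or 136 CPM (122 to 152), in animal 2. The mean of 282 ± 205 CPM (SD, n = 2) lay above 63.6% of detected genes. With no shared window among hairpins, Mir153 is the gene of the 5 for which a copy in the annotation does not limit the count.

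The Mir218 copies were the lowest of the 5. Mir218-2 had 283 counts, or 64.1 CPM (56.8 to 72.0), in animal 1 and 305 counts, or 134 CPM (119 to 150), in animal 2. Mir218-1 had 223 counts, or 50.5 CPM (44.1 to 57.6), in animal 1 and 107 counts, or 46.9 CPM (38.5 to 56.7), in animal 2. Their means were 98.9 ± 49.3 CPM and 48.7 ± 2.52 CPM (SD, n = 2), above 51.3% and 44.6% of detected genes. Both copies thus lay near the middle of the detected genes, while both Mir128 copies lay in the upper part.

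The order Mir128-1, Mir128-2, Mir153, Mir218-2, Mir218-1 held in both animals. Not all neighbours in it were apart. Mir153 at 136 CPM and Mir218-2 at 134 CPM had overlapping intervals in animal 2, while in animal 1 they lay at 427 and 64.1 CPM. The CPM intervals of Mir218-2 and Mir218-1 overlapped in animal 1 and did not overlap in animal 2. Mir128-1, Mir128-2 and Mir153 were apart from each other in both animals.

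**Figure D2:**
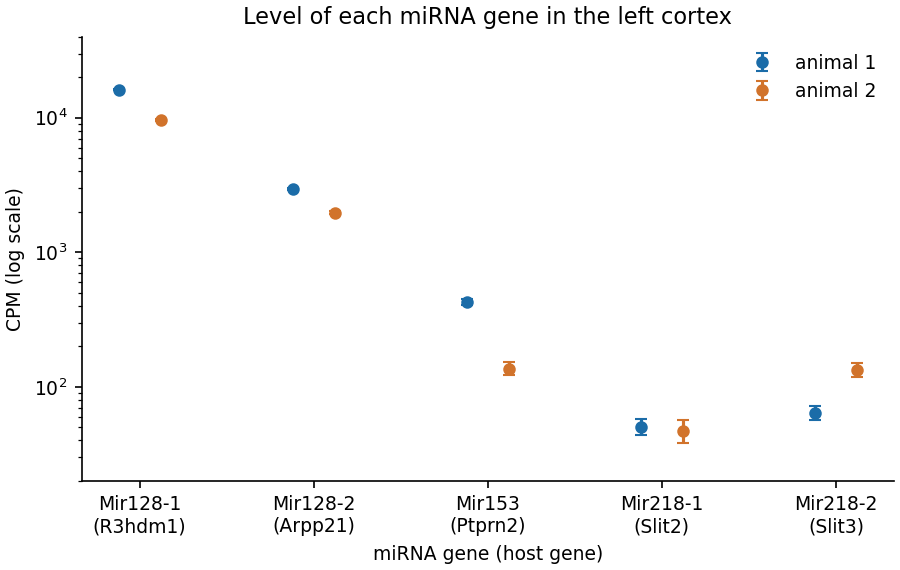
CPM on a log axis for each of the 5 miRNA genes, named with the host gene, in animal 1 (blue) and animal 2 (orange), with exact 95% counting intervals. Mir128-1 lies at 16164 and 9645 CPM, Mir153 spreads from 427 to 136 CPM, and Mir218-1 stays at 50.5 and 46.9 CPM.

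Summed by family, miR-128 genes took 1.913% of all counts in animal 1 (1.900 to 1.926%) and 1.162% in animal 2 (1.148 to 1.176%). The miR-153 gene held 0.0427% and 0.0136%, and the miR-218 genes 0.0115% and 0.0181%. The order of miR-153 and miR-218 was not the same in the animals. In animal 1 miR-153 counts were 3.73 times those of miR-218 (3.38 to 4.12), and in animal 2 they were 0.755 times (0.649 to 0.877). miR-128 counts were 44.8 times those of miR-153 in animal 1 and 85.1 times in animal 2. Set against miR-218 they were 167 and 64.3 times as many. Reads of the shared arms fit both copies, so the miR-128 and miR-218 sums are uncertain as described above, while Mir153 has no annotated copy. These ratios and the order of miR-153 and miR-218 therefore compare counts as placed, and may not give the abundance of the families.

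The split between copies is a ratio within a library and does not depend on scaling. It is a split of counts as placed, and a miR-128-3p read with 1 more U at its end fits Mir128-1 alone. The part of such reads in the split was not tested. Mir128-1 held 84.5% of the counts of the Mir128 pair in animal 1 (84.2 to 84.7%) and 83.0% in animal 2 (82.6 to 83.5%), a mean of 83.8% ± 1.03 (SD, n = 2). Its counts were 5.45 times those of Mir128-2 in animal 1 and 4.89 times in animal 2. The animals differed by 1.46 percentage points, so the split was close although Mir128-1 was at 16164 CPM in animal 1 and 9645 CPM in animal 2. Mir218-1 held 44.1% of the counts of the Mir218 pair in animal 1 (39.7 to 48.5%) and 25.97% in animal 2 (21.8 to 30.5%), a mean of 35.0% ± 12.8 (SD, n = 2). Mir218-2 had more counts than Mir218-1 in both animals, 1.27 times (1.06 to 1.52) in animal 1 and 2.85 times (2.28 to 3.59) in animal 2. The intervals of the animals did not overlap in either pair.

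These splits were read against all miRNA families with exactly 2 numbered copies, Mir128 and Mir218 included. Of 43 such families, 20 had a summed mean of 10 CPM or more, and in 12 of the 20 (60.0%) the intervals of the animals did not overlap. Both Mir128 and Mir218 belonged to these 12, as most of the 20 families did, so this does not set them apart. The Mir128 pair had the highest summed level of the 20, at 15374 CPM, and the Mir218 pair was 14th at 148 CPM. By the share of the larger copy Mir128 was 7th and Mir218 15th, where the median pair had 74.1% in its larger copy and 5 pairs (25%) had 90% or more. By the difference in share between animals Mir218 was 2nd of the 20 at 18.1 points, after Mir26a at 21.7 points, and Mir128 was 14th, below the median of 5.50 points. The longest stretch shared by the copies ran from 22 to 28 bases over the 20 pairs, with a median of 24, so Mir218 was at the lowest value and Mir128 1 base above it.

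The pairs with a split nearest to that of Mir128 were Mir16 at 79.8%, Mir125b at 76.7% and Mir181a at 94.7% in the first copy. Between animals 1 and 2 the share was 83.5% and 76.2% in Mir16, 83.7% and 69.6% in Mir125b, and 93.9% and 95.4% in Mir181a. Mir181a thus differed by as little as Mir128, and Mir16 and Mir125b by more. The nearest to Mir218 were Mir30c at 31.8%, Mir7 at 29.6% and Mirlet7c at 28.0%. Mir30c was at 31.7% and 31.9% and Mirlet7c at 28.2% and 27.7%, so their shares hardly differed between the animals, with overlapping intervals. Mir7 was at 24.3% in animal 1 and 34.9% in animal 2, opposite in direction to Mir218.

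**Figure D3:**
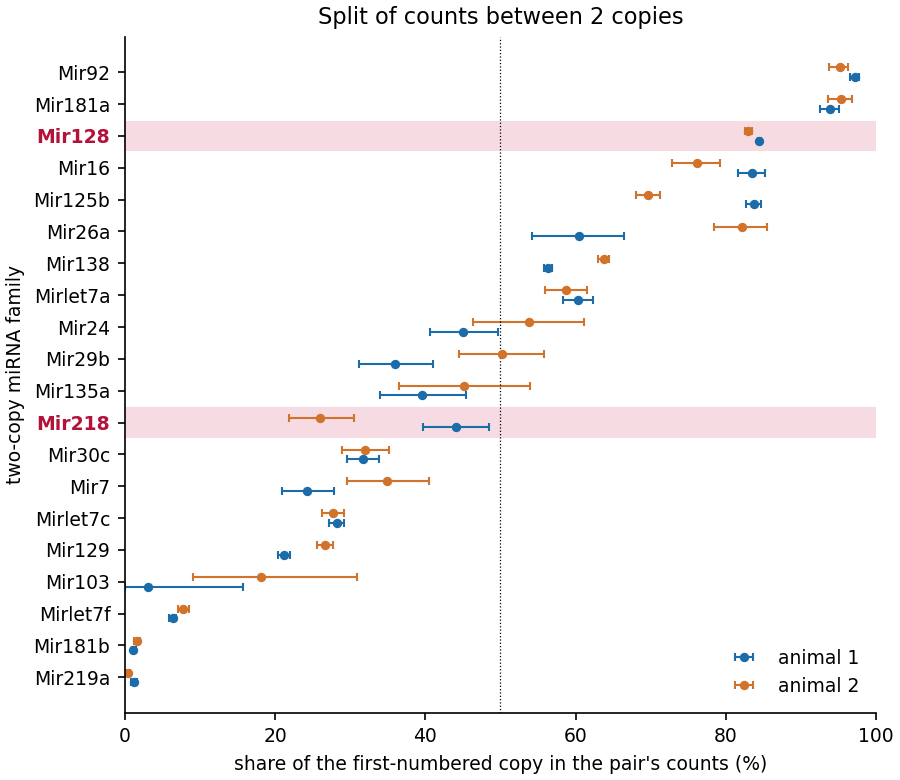
Share of the first-numbered copy in the counts of each of 20 miRNA families with 2 copies, in percent, for animal 1 (blue) and animal 2 (orange), with exact 95% intervals and a dotted line at 50%. Mir128, shaded, sits at 84.5% and 83.0%, and Mir218, shaded, at 44.1% and 25.97%.

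The genes did not move together between the animals. Mir153 was 3.13-fold higher in animal 1 (2.77 to 3.54), a log2 ratio of 1.65 (1.47 to 1.82). Mir128-1 was 1.68-fold higher in animal 1 (1.65 to 1.70) and Mir128-2 was 1.51-fold higher there (1.46 to 1.56). Mir218-2 went the other way and was 2.09-fold higher in animal 2 (1.77 to 2.46). Mir218-1 had a log2 ratio of 0.11 with an interval from -0.23 to 0.45, so no difference was detectable at this depth. The members of a family had the same direction in miR-128 and not in miR-218, where 1 copy lay inside counting error.

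A gene was called outside counting error when the exact 95% interval of animal 1's share of its counts left out the share given by the library totals. By that rule 4 of the 5 genes were called, against 235 of 415 detected genes (56.6%). Called higher in animal 1 were Mir128-1, Mir128-2 and Mir153, or 3 of 5, against 112 of 415 (27.0%). Called higher in animal 2 was Mir218-2, or 1 of 5, against 123 of 415 (29.6%). With 5 genes, 2 of which share a mature arm and a direction, these counts say little about the group. By size, the log2 ratio of Mir153 exceeded that of 95.9% of detected genes without regard to sign, that of Mir218-2 87.2%, Mir128-1 79.3%, Mir128-2 70.6% and Mir218-1 18.8%. The median log2 ratio was 0.59 over the 5 genes and -0.0029 over all detected genes. This compares 2 libraries and no conditions, so no p-value was computed.

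**Figure D4:**
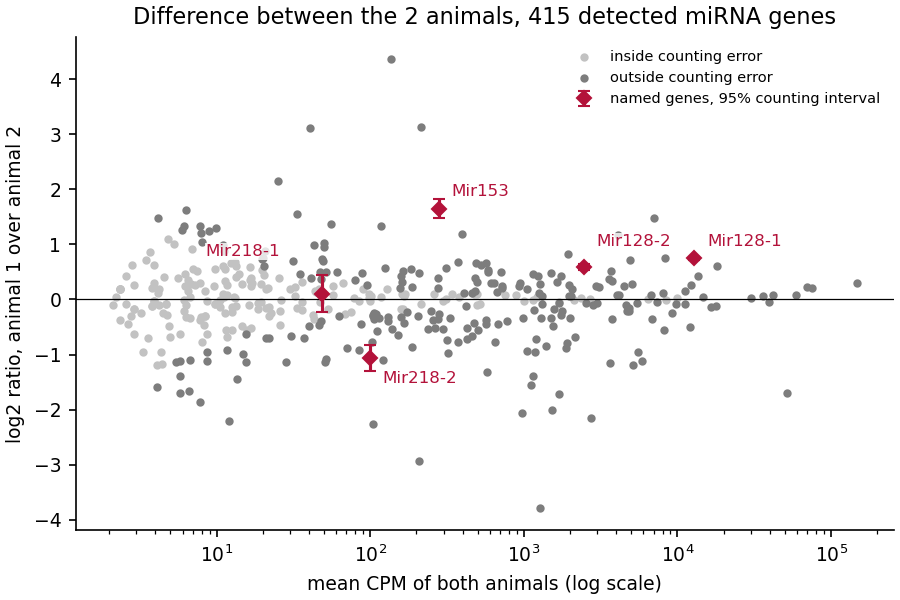
The log2 ratio of CPM, animal 1 over animal 2, against the mean CPM on a log axis for 415 detected miRNA genes, pale grey inside and dark grey outside counting error. The 5 genes are red diamonds with 95% counting intervals, with Mir153 at 1.65, Mir128-1 at 0.74, Mir128-2 at 0.59, Mir218-1 at 0.11 and Mir218-2 at -1.06.

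Other miRNAs known as enriched in neurons did not share 1 direction either. Of 15 such genes on a comparison list, 11 were detected in both animals, with 4 called higher in animal 1, 5 in animal 2 and 2 inside counting error. Over all detected genes 27.0% were called higher in animal 1 and 29.6% in animal 2. The median log2 ratio of the 11 genes was 0.02. Mir132 led the list, with 24389 CPM in animal 1 against 79576 CPM in animal 2, the reverse of the direction of Mir153 and Mir128. Mir138-1 followed at 4329 and 5025 CPM. The lowest were Mir124a-3 with 4 and 0 counts and Mir124a-2 with 6 and 4 counts. Windows of 22 bases found in another hairpin made up 42.6% of Mir124a-3 and 29.5% of Mir124a-2, so these low counts are uncertain in the same way as those of the copies above and do not show that miR-124 was low. The other 2 genes below the detection level, Mir124a-1 and Mir9-2, also shared windows, 32.8% and 47.1%. Among the detected genes of the list the share ran from 0%, as in Mir132, to 63.8% in Mir129-2 and 100% in Mir9-1. Windows were matched on both strands, so a hairpin annotated opposite a gene at the same place also counts. A high share therefore need not mean that reads fit several places. Whether shared windows lowered the counts was not tested. Over all 15 genes the median was 481 CPM for animal 1 and 815 CPM for animal 2, and over the 11 detected it was 1781 and 2240 CPM. Over the 5 genes described here, all detected, it was 427 and 136 CPM.

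Markers of other cells were measured in the same libraries. The share of counts at 3 oligodendrocyte miRNAs was 0.164% for animal 1 and 0.346% for animal 2. The 3 endothelial and smooth muscle miRNAs held 1.15% and 1.52%, the 3 microglial and leukocyte miRNAs 0.0441% and 0.0645%, and the choroid plexus miRNA Mir204 0.0480% and 0.0652%. The 3 erythroid miRNAs held 0.0459% and 0.00912%. Of these 13 genes, 8 were called higher in animal 2 and 2 in animal 1, where 29.6% and 27.0% of all detected genes were called in these directions. None of the 13 was at 0 in either animal. Over the 13, windows found in another hairpin, on either strand, ran from 0%, as in Mir143, to 100% in Mir142 and Mir451a. Whether shared windows changed these counts was not tested. Not every gene followed the sum of its list. Mir486 went against the erythroid sum, at 33.5 CPM in animal 1 and 38.2 CPM in animal 2. Mir219a-1 went against the oligodendrocyte sum, at 7.47 and 6.14 CPM, and both genes lay inside counting error. Unmapped reads were 23.4% in animal 1 and 47.1% in animal 2. The part of these differences in the values of Mir128-1, Mir128-2, Mir153 and Mir218-2 was not tested.

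The miRNA genes nearest to each of the 5 were found by the distance between their log2(CPM + 1) values over the 2 libraries. Nearest to Mir128-1 were Mir652, at 15703 and 11646 CPM, and Mir330, at 13320 and 11105 CPM. Nearest to Mir128-2 were Mir323 and Mir30e, and to Mir153 were Mir1306 and Mir505, at distances of 0.88 and 0.89. Nearest to Mir218-1 were mmu-mir-3535 and Mir24-1, at 0.08 and 0.11, and to Mir218-2 were Mir669o, at 75.6 and 129.8 CPM, and Mir340, at 58.2 and 109.7 CPM. Mir153 had the farthest nearest gene of the 5, and Mir218-1 the closest. With 2 libraries this likeness describes levels and a single difference, and nothing more.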

How the data were processed

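For each library the authors deposited a table of whole-number read counts at miRNA genes, not normalized. Per the labels, total RNA was used and library RNA was below 30 nucleotides. The metadata deposited with each library name mm10 and GENCODE M21. The aligner, trimming and filters were not given in the sources used here. A table holds 3 unnamed columns of counts. Column 3, with the identifier column counted first, was used. Its gene totals were the larger of the strand columns in both libraries. The 4 summary entries were left out of totals.

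All 2202 identifiers matched the annotation. CPM was computed over all gene counts. Detected means at least 2 CPM in each library, equal to 8.83 counts for animal 1 and 4.56 for animal 2. Intervals are exact Clopper-Pearson 95% (scipy 1.17.1, Python 3.11.15), and the call was tested on simulated counts. The simulation held counting error only, so it does not cover differences between animals or library preparations. With 1 group, no contrast was tested. Hairpin sequences were compared by exact matching, since no genome was used. Alternatives used edgeR 4.0.16 (TMM) and DESeq2 1.42.0 (size factors). Named are the 5 genes, genes sharing their host or seed, the 2 nearest genes in level, the 3 families of 2 copies nearest in split, and the extremes of the lists. The members and lists were chosen with earlier results of these data known. The labels number separate animals under the same donor identifier and say no more of the replicates. Spreads over 2 libraries may therefore be partly technical.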

Additional observations from a re-analysis of the deposited data

Results flagged for a closer look

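Reads that mapped to several places, a summary entry that no comparison here uses, made up 48.9% of the mapped reads for animal 1 and 48.2% for animal 2. These percentages were computed as if the reads were separate from the gene counts. Whether these reads were also counted at genes is not known from the sources used here. The tables do not say from which miRNAs they came, so whether reads of miR-128-3p or miR-218-5p are among them was not tested.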

How the results depend on the processing

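The 5 log2 ratios kept their direction and their side of the counting interval under TMM factors, DESeq2 size factors, a total without the most abundant miRNA gene and the unstranded column. With pseudocounts of 1 and 5 CPM, for which no interval was computed, the ratios kept their direction. With all mapped reads in place of counted reads in the total, the mean levels were 5494 for Mir128-1, 1051 for Mir128-2, 119.95 for Mir153, 20.7 for Mir218-1 and 42.1 for Mir218-2, from the larger total. Mir218-1, with an SD of 2.52 CPM, was 57.1 CPM without the most abundant gene in the total and 52.1 CPM in the unstranded column. At windows of 26 bases the share of hairpin windows found in another hairpin was 0% for all 5 genes. At 18 bases it was 11.3% for Mir128-1, 10.2% for Mir128-2, 5.38% for each Mir218 copy and 0% for Mir153. With either library alone, Mir153 was 136 or 427 CPM and Mir218-2 was 64.1 or 134 CPM, and the share of Mir218-1 was 25.97% or 44.1%. The genes outside counting error numbered 239 with TMM factors, of which 123 were higher in animal 1 and 116 in animal 2, the reverse of the order of 112 and 123 without them. No paired analysis was possible because there is a single group. Depth limits Mir218-1 most, with 107 counts in animal 2.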

Other observations

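The first 8 bases of miR-128-3p, uCACAGUG, are bases 2 to 9 of miR-27a-3p and miR-27b-3p, which gives them an offset seed. These genes lie outside the naming rule and were chosen after the values above were seen. Mir27b lay at 803 CPM for animal 1 and 1560 CPM for animal 2, and Mir27a had 89.0 and 133 CPM. Counting error did not cover either difference, and both genes stood higher in animal 2, with log2 ratios of -0.96 (-1.03 to -0.89) and -0.58 (-0.80 to -0.36), while Mir128-1 and Mir128-2 were higher in animal 1. Summed over both genes of each family, miR-128 counts stood above miR-27 counts in both animals.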
